A study of Mus musculus with 18 samples.

Results

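Restoration of p53 was examined in 10 grade 3 mouse lung tumours, 6 from treated and 4 from untreated animals, out of 18 tumours profiled on arrays. The tumours were chosen by their titles, which state treatment and grade. All animals were of the C57/B6-129SvJae strain and 10 weeks old, and tumours were microdissected from the lung. Treated animals received tamoxifen in 2 intraperitoneal injections, and tumours were taken 7 days after the first injection. The labels call the treated grade 3 tumours adenocarcinomas with restored p53. Untreated animals are labelled only as untreated, so no group received tamoxifen without restoration of p53, and a vehicle is not stated. The labels do not name the alleles. From what is known of this study, the p53 gene is silenced in all groups by a removable stop element that tamoxifen-activated Cre excises. RNA of a tumour mixes malignant with other cells, and fewer cells of a type cannot be told apart from less RNA per cell.

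The 6 treated grade 3 tumours all came from 1 female mouse, number 8688. The 4 untreated grade 3 tumours came from 3 male mice: 8584 (tumour 8584T3), 8565 (8565T1) and 8629 (8629T10 and 8629T12). Treatment therefore cannot be told apart from the mouse or its sex in any value below. Of the 8 grade 2 tumours, 3 treated ones also came from mouse 8688, and 8639T4 from a male was the only treated tumour of another mouse. The P-values measure the spread between tumours, with a shared correlation for tumours of a mouse, and do not carry the spread between treated mice.

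p53 is a transcription factor that is held low in normal cells by the ubiquitin ligase Mdm2. When stabilised it switches on genes that stop the cell cycle, among them the CDK inhibitor p21 (Cdkn1a), and genes that promote cell death, repair DNA or limit p53 itself. p21 keeps RB-family proteins active, and the DREAM complex of RB-like proteins and E2F4 then silences mitotic genes through a promoter element called CHR. In mouse lung tumours of this kind, higher grade goes with stronger signalling through the MAPK pathway, loss of alveolar identity and gain of genes of gut and embryonic endoderm.

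Values are the authors' log2 GCRMA signals. The median over probe sets of an array ran from 6.05 to 6.18, and no signal below about that level tells much about a transcript. Pairwise correlations between arrays ran from 0.974 to 0.997. Surfactant genes Sftpc, Sftpa1, Sftpb and Sftpd, used here as markers of alveolar type 2 cells, were above the array median in 10 of 10 grade 3 tumours. Sftpc lay between 12.31 and 13.49. Nkx2-1, a defining transcription factor of lung epithelium, was above the median in 0 of 10, with values from 3.27 to 4.26. The log2 signal of 3′ minus that of 5′ control probe sets, averaged over Actb and Gapdh only, was 2.62 for treated tumour 8688T3 and 1.85 for 8639T4, against at most 1.05 elsewhere. For the control transcripts Pc and Tfrc 8688T3 was not the highest array. Xist, the RNA of the inactive X chromosome, lay between 11.29 and 11.97 in the treated and between 4.35 and 5.52 in the untreated grade 3 tumours, as the labelled sexes give. The probe sets of the restored gene itself are not analysed here.

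In limma's moderated test, 34 of 7300 genes (0.466%) passed an adjusted p of 0.05 between treated and untreated grade 3 tumours. Of these, 14 (0.192%) were higher and 20 (0.274%) lower in treated tumours, and Xist and the Y-linked Eif2s3y were 2 of them. At an unadjusted p under 0.05 there were 382 higher (5.23%) and 263 lower (3.6%). The median log2 difference over all genes was 0.04, and 4154 genes (56.9%) had a difference above 0. The genes that fell were led by the haemoglobin gene Hbb-b2, the cytokinesis gene Anln, the mucin Muc5b and the gut lectin Lgals4, while Rtkn2, Map3k20, Ctr9, Cth and Ttc5 led those that rose. In all 34 genes the 6 treated tumours did not overlap the 4 untreated ones, a separation seen in 207 genes (2.84%) with higher and 152 genes (2.08%) with lower treated values among all those tested. Without mouse 8629, 10 genes passed, and without tumour 8584T3 168 did. Averaging tumours per mouse leaves 1 value in the treated grade 3 group, so no conclusion is drawn from the number of genes passing in that fit.

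**Figure D1:**
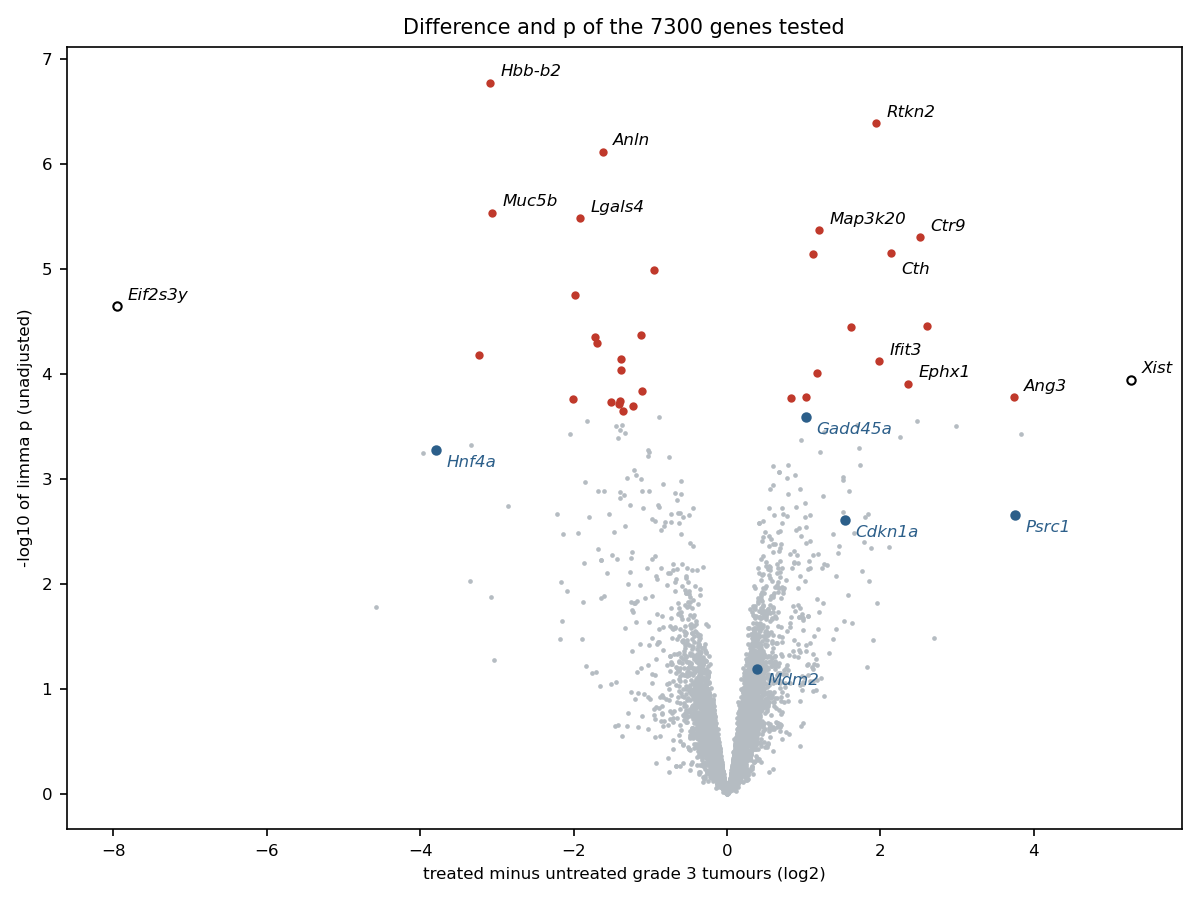
Fitted log2 difference (treated minus untreated grade 3 tumours) against −log10 of limma's unadjusted p for the 7300 genes tested. Red points are genes that passed an adjusted p of 0.05, open circles the 2 sex-linked genes among them, and blue points are named genes that did not pass, such as Cdkn1a at a difference of 1.53.

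Cdkn1a, which encodes p21 (probe set 1424638_at), had a lowest, median and highest value of 10.52, 11.24 and 11.87 in the 6 treated tumours. The untreated values were 10.40 in 8584T3, 9.0 in 8565T1, 9.34 in 8629T10 and 9.19 in 8629T12. All treated tumours lay above all untreated ones, with 8584T3 only just below the lowest. The fitted difference was 1.53 ± 0.44 (SE), which did not pass (limma adjusted p = 0.151). Without 8584T3 it was 1.90 with an adjusted p of 0.0191. The second Cdkn1a probe set differed by 1.92 between the group means.

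Among the other p53 targets that act on the cell cycle, the 4 of smallest p ran the same way without passing. Of that list 2 tested members, Sfn and Ccng2, ran the other way, as given below. Gadd45a, a stress sensor that binds CDK1 and PCNA, ranged over 9.13, 9.49 and 9.71 (lowest, median, highest) in treated tumours and was 8.22, 8.63, 8.35 and 8.71 in 8584T3, 8565T1, 8629T10 and 8629T12. The groups did not overlap, and the difference of 1.03 ± 0.23 had a limma adjusted p of 0.0525. Ccng1, the cyclin G1 gene, gave 11.93, 12.35 and 12.72 in treated tumours against 11.42, 11.39, 11.45 and 11.55, again without overlap (difference 0.80 ± 0.20, limma adjusted p = 0.0886). Its other probe sets, which are dimmer, differed by 1.93 and 2.05, so the size of the Ccng1 difference depends on the probe set.

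Phlda3, a p53-induced inhibitor of AKT, had treated values of 6.84, 7.45 and 8.33 against 6.26, 5.97, 5.48 and 5.89 in the untreated tumours. Its groups were separate and its difference was 1.52 ± 0.38 (limma adjusted p = 0.103). Psrc1, a microtubule-binding p53 target, had the largest difference among these genes: 7.29, 8.26 and 9.97 treated against 2.67, 4.53, 4.33 and 5.14 untreated. That is 3.76 ± 1.05 (limma adjusted p = 0.144), and its other probe sets differed by 2.82 and 0.89. The untreated Psrc1 values all lay below the array medians, where GCRMA signals have little resolution.

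Of the 18 listed p53 targets of cell cycle arrest, 14 could be tested and 0 passed. The median difference over those 14 was 0.63, against 0.04 for all genes, 12 of 14 were above 0, and 7 were higher at an unadjusted p under 0.05. In 7 of 14 the treated tumours lay wholly above the untreated ones, against 2.84% of all genes. In 2 of 14, Sfn and Ccng2, they lay wholly below, against 2.08% of all genes, with differences of -0.89 and -0.17 (limma adjusted p = 0.457 and 0.72). Sfn encodes 14-3-3 sigma, a p53-induced brake on mitotic entry, and was the 1 member lower at an unadjusted p under 0.05. The mean of the 14 genes ran from 8.80 to 9.39 in treated tumours and from 8.22 to 8.24 in the 4 untreated ones. In untreated grade 2 tumours it was 8.997 and 8.84 for mouse 8700, inside that treated range. For mouse 8565 it was 8.22 and 8.13, so untreated mice differed in this mean. Without 8584T3, 4 of the 14 passed. Without the filter on low values 16 members could be fitted, with a median difference of 0.45 and 1 that passed.

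Of the tested targets that promote cell death, 0 of 13 passed. Their median difference was -0.03 and 6 were above 0. At an unadjusted p under 0.05, 4 were higher (Fas, Aen, Trp53inp1 and Apaf1), against 5.23% of all genes, and 1 was lower (Casp1), against 3.6%. The death and arrest targets were not compared by a test. Fas, a death receptor, had treated values of 8.51, 9.17 and 9.50 and untreated values of 8.83, 8.06, 7.78 and 8.57. Untreated 8584T3 and 8629T12 thus lay within the treated range of Fas. Trp53inp1, a p53 cofactor in cell death and autophagy, gave 11.87, 12.04 and 12.09 treated. Its untreated values were 11.98 in 8584T3, within the treated range, and 11.34, 11.24 and 11.31 in the rest. The differences were 0.74 ± 0.26 for Fas and 0.48 ± 0.19 for Trp53inp1, with limma adjusted p-values of 0.311 and 0.403. Without 8584T3 both passed, at 0.0332 and 0.0222.

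Aen, a p53-induced nuclease, lay at 9.27, 9.69 and 10.24 in treated tumours and at 9.17, 9.22, 8.79 and 8.96 in untreated ones. The groups were separate, with a difference of 0.65 ± 0.23 and a limma adjusted p of 0.31. Bbc3, which encodes the death-inducing BH3 protein PUMA, stayed under the array median in every grade 3 tumour (3.80 to 4.62) and was not tested. Among 23 tested BCL2-family and caspase genes the median difference was -0.01 and 0 passed. Bok, a BAX-like effector, was 5.04, 5.43 and 6.22 treated against 7.23, 7.28, 6.44 and 8.20 untreated (difference -1.60 ± 0.42, limma adjusted p = 0.115).

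Mdm2 is both a target of p53 and its main inhibitor. It had treated values of 10.06, 10.24 and 10.79 and untreated values of 10.01, 9.90, 10.01 and 9.86. The groups did not overlap, but the gap between them was smaller than the spread within the treated group. The difference was 0.39 ± 0.20 (limma adjusted p = 0.592). Over 12 tested regulators of p53 the median difference was -0.04 and 0 passed. Cdkn2a, whose ARF product blocks Mdm2 and whose p16 product inhibits CDK4, lay at 4.35, 5.08 and 5.72 in treated and 5.51, 4.95, 5.82 and 5.82 in untreated tumours. It was under the array median throughout, so it was not tested.

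Of 22 tested p53 targets in metabolism, redox balance and repair, 1 rose, against 0.192% of all genes. This was Ephx1, the microsomal epoxide hydrolase, with 9.26, 9.93 and 10.96 in treated and 7.61, 7.98, 7.49 and 6.48 in untreated tumours. Every treated tumour exceeded every untreated one by more than 1 log2 unit, and the difference was 2.36 ± 0.48 (limma adjusted p = 0.0377). In the untreated grade 2 tumours Ephx1 ran from 8.36 to 10.21, which overlaps the treated range. Ercc5, an endonuclease of nucleotide excision repair, gave 7.99, 8.17 and 8.43 against 7.88, 7.49, 7.66 and 7.49 (difference 0.60 ± 0.15, limma adjusted p = 0.0886). The median over the 22 genes was 0.11.

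Genes of mitosis and cytokinesis were the list with the most members among those that fell. Of 36 tested members, 6 fell and 0 rose, against 0.274% and 0.192% of all genes. They were Anln, Nusap1, Cdca3, Cdc20, Ncapg and Tacc3. The median difference over the 36 was -1.24, 34 were below 0, and 29 had an unadjusted p under 0.05 on that side, against 3.6% of all genes. A gene that is low in treated tumours could enter the test through untreated tumours alone, so the shift was also taken over all 56 members on the array. Without the filter 10 of the 56 fell, 54 were below 0, and the median was -1.10.

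Anln encodes anillin, which organises the contractile ring in cytokinesis (probe set 1433543_at). Its lowest, median and highest treated values were 5.86, 5.97 and 6.28, and the untreated values were 7.46, 7.43, 7.49 and 8.10 in 8584T3, 8565T1, 8629T10 and 8629T12. No untreated tumour came within 1 log2 unit of the treated group. Anln fell by 1.62 ± 0.22 (limma adjusted p = 0.00186), and it passed in each of the 10 fits that left out 1 grade 3 tumour and with sex as a covariate. Cdc20, the activator of the anaphase-promoting complex, gave 5.98, 6.33 and 6.84 treated against 7.13, 7.96, 8.05 and 8.73 untreated. The lowest untreated Cdc20 value was that of 8584T3, and the fall of 1.51 ± 0.32 (limma adjusted p = 0.0438) was lost in 8 of the 10 fits without 1 tumour.

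Nusap1, a spindle microtubule protein, lay at 5.44, 5.76 and 6.59 in treated and 6.96, 7.67, 7.94 and 8.37 in untreated tumours. It fell by 2.01 ± 0.42 (limma adjusted p = 0.0438). Cdca3, which marks mitotic inhibitors for degradation, was 5.16, 5.47 and 6.03 treated and 6.33, 7.20, 7.12 and 7.77 untreated, a fall of 1.70 ± 0.32 (limma adjusted p = 0.0217). In both genes 8584T3 was the untreated tumour nearest to the treated group. Their other probe sets were under the array median in every grade 3 tumour. Those differed between group means by -0.37 for Nusap1 and by 0.01 and 0.07 for Cdca3.

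Condensins compact chromosomes for division, and a subunit of each complex fell. Ncapg of condensin I had treated values of 6.13, 6.29 and 6.98 and untreated values of 7.26, 7.86, 7.61 and 7.92. It fell by 1.38 ± 0.27 (limma adjusted p = 0.0279). Ncapg2 of condensin II, which was not on the list, gave 6.50, 6.69 and 7.12 against 7.81, 7.98, 7.71 and 7.98 and fell by 1.12 ± 0.21 (limma adjusted p = 0.0202). The untreated Ncapg2 values were close together, with 8584T3 among them. Tacc3, a centrosome and spindle protein, fell by 1.10 ± 0.23 (limma adjusted p = 0.0427). Dimmer probe sets, under the array median throughout, differed between group means by -0.76 for Ncapg and by -0.37 and -0.67 for Tacc3.

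Mki67, the proliferation marker Ki-67, did not pass. Its treated values were 7.57, 7.84 and 8.51, and 8584T3 at 8.06 lay within them, below 9.57, 9.20 and 9.72 in the other untreated tumours. The difference was -1.33 ± 0.38 (limma adjusted p = 0.159). Cdk1, the kinase that starts mitosis, showed the same order: 5.49, 5.60 and 6.30 treated, 5.74 in 8584T3, and 7.81, 7.46 and 7.96 in 8565T1, 8629T10 and 8629T12 (difference -1.54 ± 0.43, limma adjusted p = 0.144). Averaged over the 36 genes, treated tumours ran from 6.84 to 7.41, 8584T3 stood at 7.32 inside that range, and the other untreated tumours at 8.27, 8.10 and 8.55. Without 8584T3, 25 of the 36 genes fell, and without treated tumour 8688T3, 2 of 36 did.

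**Figure D2:**
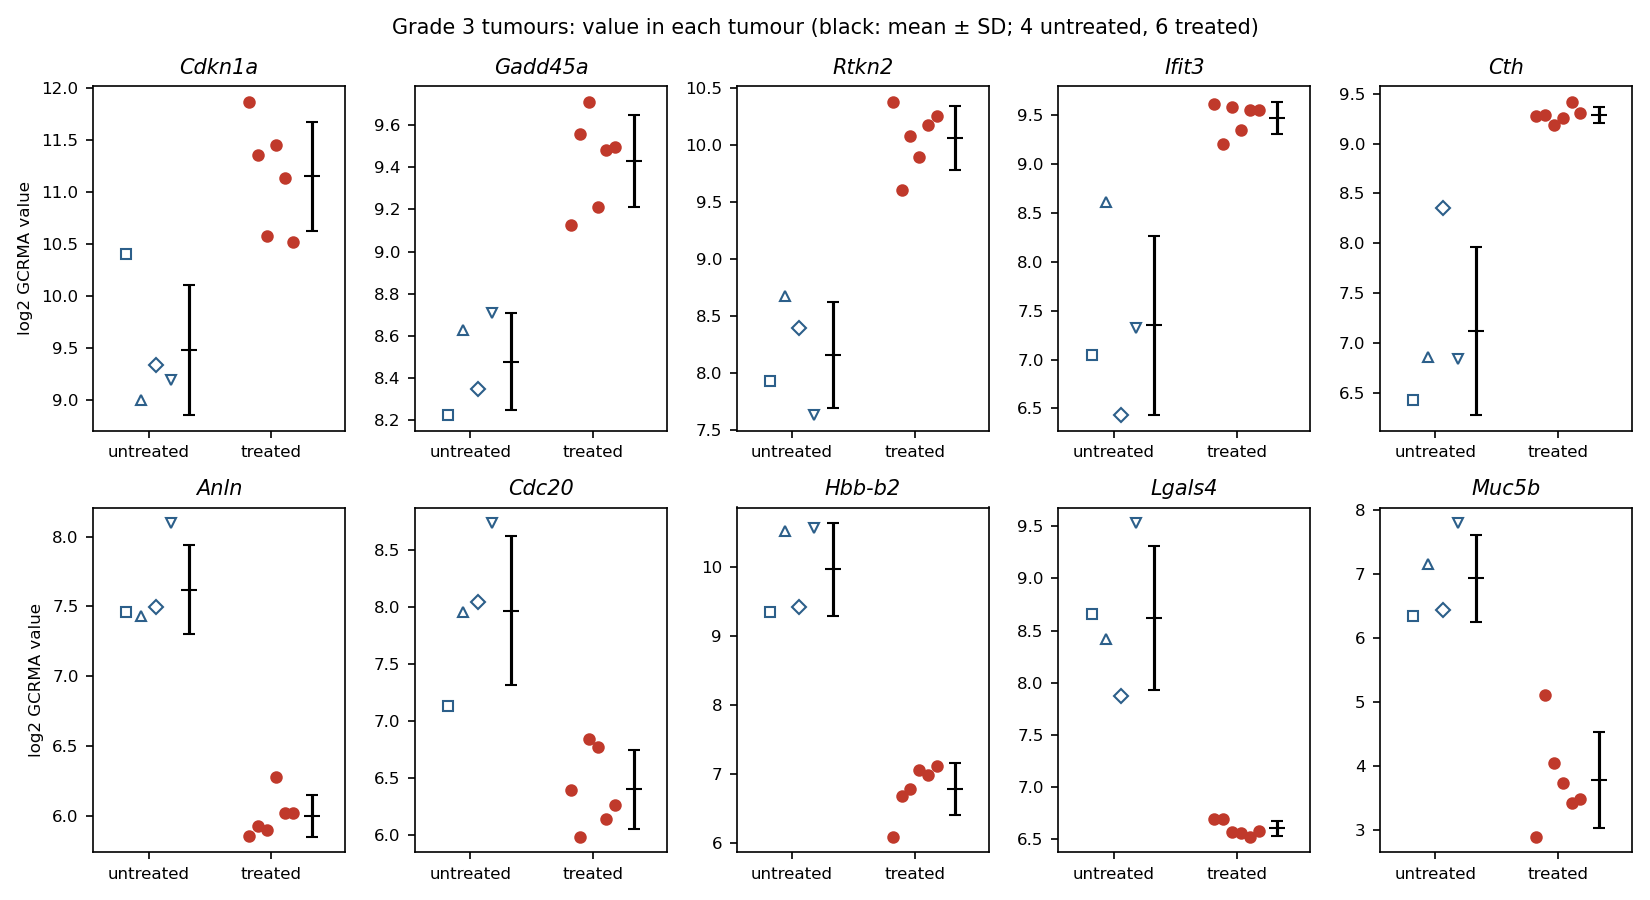
Log2 GCRMA value of 10 genes in each grade 3 tumour, untreated in open blue symbols (square 8584T3, triangle 8565T1, diamond 8629T10, inverted triangle 8629T12) and treated in red, with the group mean ± SD in black. The groups do not overlap in any panel, and Cdkn1a in 8584T3 (10.40) lies just below the lowest treated tumour (10.52).

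The CHR element TTTGAA was searched on both strands of RefSeq promoters (build GRCm38.p6, 250 bases before to 50 after the transcription start). Promoter entries matched 29 of the 36 tested mitosis genes, and 21 of these (72.4%) held it, against 13.9% of all tested genes and 20.2% of all genes in the table. A match describes the letters and is not a binding site by itself. The stretches from 80 bases before the start are shown for 3 genes that fell and carry the motif there, and for Cdk1, each 5′ to 3′ on the strand of the gene, with TTTGAA in capitals.

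Cdc20: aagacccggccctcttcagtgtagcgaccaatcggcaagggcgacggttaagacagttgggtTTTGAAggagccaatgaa
Ncapg: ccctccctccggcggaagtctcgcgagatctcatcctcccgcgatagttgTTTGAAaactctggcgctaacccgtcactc
Ncapg2: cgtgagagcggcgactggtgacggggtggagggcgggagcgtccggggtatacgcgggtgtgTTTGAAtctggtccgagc
Cdk1: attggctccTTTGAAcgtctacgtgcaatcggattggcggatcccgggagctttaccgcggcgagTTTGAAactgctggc

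These lie at chr4:118437344-118437423 on the minus strand for Cdc20, chr5:45669845-45669924 on the plus strand for Ncapg, chr12:116405356-116405435 on the plus strand for Ncapg2, and chr10:69352913-69352992 on the minus strand for Cdk1. All are upstream sequence before the annotated start. Counted from the start, the motif began at -18 in Cdc20 and Ncapg2, at -30 in Ncapg, and at -71 and -15 in Cdk1. Mitosis genes with the motif had a median difference of -1.27 (21 genes, 4 of which fell), and those without it -1.16 (8 genes, 2 of which fell). No test was made of the difference between these medians.

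Of 27 tested DNA replication genes 1 fell, against 0.274% of all genes, 21 were below 0, against 43.1%, and the median was -0.20. The difference from the mitosis list was not tested. The 1 was Tk1, thymidine kinase of S phase, at 5.39, 5.77 and 6.05 in treated and 6.17, 7.57, 6.86 and 7.55 in untreated tumours, a fall of 1.41 ± 0.30 (limma adjusted p = 0.0447). Its lowest untreated value was again that of 8584T3. Pcna, the sliding clamp, overlapped fully: 10.45 to 10.86 treated and 10.23 to 10.86 untreated. Among 18 tested CDK inhibitors, RB-family, E2F and G1 cyclin genes 0 passed and the median was 0.02. Cdkn1b, which encodes p27, ran from 10.97 to 11.43 treated and from 11.05 to 11.52 untreated.

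**Figure D3:**
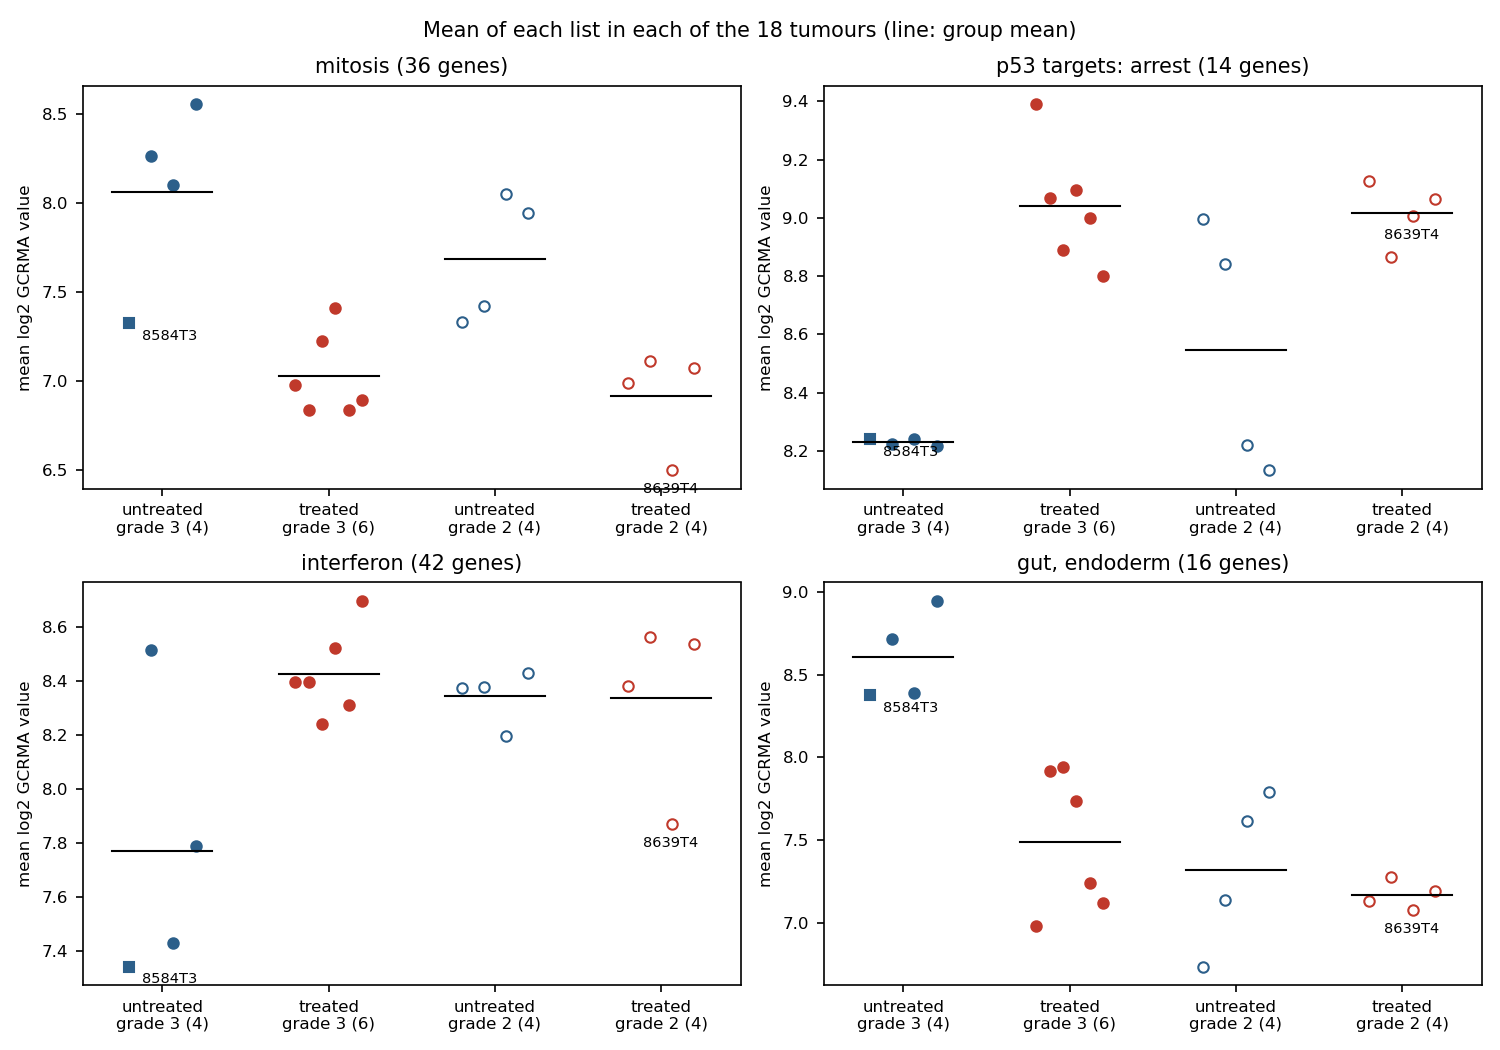
Mean log2 GCRMA value of 4 gene lists in each of the 18 tumours, untreated in blue and treated in red, grade 3 filled and grade 2 open, with the group mean as a line. The untreated grade 3 tumour 8584T3 (square) lies at 7.32 for mitosis, inside the treated range of 6.84 to 7.41, and at 8.24 for p53 arrest targets, below all treated tumours.

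A second set of genes that fell marks gut, mucous and endodermal epithelium, which lung adenocarcinomas can acquire as they progress. Of 16 tested members of that list, 3 fell (Muc5b, Lgals4 and Cldn2), against 0.274% of all genes, 13 were below 0, against 43.1%, and the median was -0.88. Most of the 49 listed genes were low: over the 41 on the array without the filter the median was -0.38. With the probe sets of a gene averaged, and the filter applied to those averages, the median was -0.13.

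Muc5b, a gel-forming mucin (probe set 1427626_at), had treated values of 2.89, 3.61 and 5.10 against 6.34, 7.16, 6.44 and 7.79 in 8584T3, 8565T1, 8629T10 and 8629T12. It was under the array median in 6 of 6 treated and above it in 4 of 4 untreated tumours, and fell by 3.06 ± 0.46 (limma adjusted p = 0.00483). Lgals4, a galectin of gut epithelium (probe set 1451336_at), was nearly constant in treated tumours at 6.52, 6.58 and 6.69 and varied in untreated ones at 8.66, 8.42, 7.87 and 9.53. It fell by 1.91 ± 0.29 (limma adjusted p = 0.00483). Cldn2, a pore-forming claudin of leaky epithelia, gave 7.29, 7.79 and 8.44 against 8.97, 8.89, 9.58 and 9.47 and fell by 1.39 ± 0.30 (limma adjusted p = 0.0438).

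Hnf4a, a transcription factor of gut and liver epithelium, had a large difference between group means but also a wide spread. It was 3.27, 5.26 and 6.59 treated against 6.91, 9.69, 9.02 and 10.03 untreated, with 8584T3 only just above the highest treated tumour. The difference of -3.79 ± 0.90 did not pass (limma adjusted p = 0.072). Tspan1, a tetraspanin of secretory epithelia outside the list, gave 7.78, 8.34 and 8.71 against 9.57, 10.13, 9.73 and 10.69 and fell by 1.72 ± 0.32 (limma adjusted p = 0.0202). Its second probe set differed by -2.40. Untreated grade 2 tumours had Muc5b between 3.30 and 4.17 and Lgals4 between 6.84 and 6.99, near the treated grade 3 tumours. For Muc5b the treatment difference in grade 3 minus that in grade 2 was -2.92 (limma adjusted p = 0.127).

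Alveolar genes leaned upward. Rtkn2, used as a marker of alveolar type 1 cells (probe set 1418108_at), had 9.60, 10.13 and 10.38 in treated and 7.93, 8.68, 8.39 and 7.63 in untreated tumours. The lowest treated value exceeded the highest untreated one by close to 1 log2 unit, and Rtkn2 rose by 1.95 ± 0.25 (limma adjusted p = 0.0015). It was 1 of 19 tested type 1 genes that rose, against 0.192% of all genes. All 19 had a difference above 0, against 56.9% of all genes, with a median of 0.24. Hopx, a homeodomain protein of type 1 cells, gave 11.33, 11.70 and 11.78 against 11.22, 11.15, 10.73 and 10.38 (difference 0.79 ± 0.21, limma adjusted p = 0.118).

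Among 25 tested type 2 genes 23 were above 0 and the median was 0.25, yet 0 passed. Ribosomal protein genes, which share no alveolar role, had nearly the same median as the type 1 and the type 2 genes. It was 0.24, with 26 of 27 above 0. With array weights these medians were 0.01 for type 2 and -0.02 for ribosomal genes. Sftpc overlapped between groups, at 12.64 to 13.49 treated and 12.31 to 13.07 untreated. Scgb1a1, the secretoglobin of club cells, was 10.35, 11.94 and 12.91 in treated and 12.96, 13.20, 12.44 and 13.24 in untreated tumours (difference -0.92 ± 0.61, limma adjusted p = 0.678). Scgb3a2, another secretoglobin of club cells, was 1.83, 4.42 and 7.16 against 8.31, 10.28, 9.29 and 10.01, without overlap but with a wide spread (difference -4.58 ± 1.73, limma adjusted p = 0.384). Over the 7 tested airway genes the median difference was -0.61, and 0 passed. Of 3 ciliated-cell markers, Foxj1 and Tekt1 were above the array median in 0 of 10 grade 3 tumours and Tppp3 in 8.

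Interferon-stimulated genes also leaned upward. Of 42 tested members 1 rose, 40 were above 0 (against 56.9% of all genes), 11 were higher at an unadjusted p under 0.05 (against 5.23%), and the median was 0.37. Ifit3, an antiviral effector and the member that passed, had 9.20, 9.56 and 9.61 in treated and 7.05, 8.61, 6.43 and 7.32 in untreated tumours. It rose by 1.99 ± 0.39 (limma adjusted p = 0.0279), and 8565T1 was the untreated tumour nearest to the treated ones. Ifit1, a related antiviral effector, gave 9.17, 9.39 and 9.65 against 6.20, 8.96, 7.10 and 7.78 (difference 1.66 ± 0.49, limma adjusted p = 0.171).

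Oasl2, an oligoadenylate synthetase-like protein, ran at 8.38, 8.59 and 8.89 in treated tumours, and 8565T1 at 8.51 fell among them while 5.64, 6.43 and 7.26 in 8584T3, 8629T10 and 8629T12 lay below. Its difference was 1.44 ± 0.45 (limma adjusted p = 0.221). Irf7, the transcription factor that amplifies the response, gave 6.42, 6.55 and 7.10 against 5.09, 6.27, 4.75 and 5.18 (difference 1.01 ± 0.35, limma adjusted p = 0.291). Averaged over the list, 8565T1 stood at 8.51 inside the treated range of 8.24 to 8.70, and the other untreated tumours at 7.34, 7.43 and 7.79. In grade 2 the treated tumour of another mouse, 8639T4, stood at 7.87, below that range. The treated grade 2 tumours of mouse 8688 stood at 8.38, 8.56 and 8.54. Those of untreated grade 2 were at 8.37 and 8.38 for mouse 8700 and at 8.20 and 8.43 for mouse 8565. With sex as a covariate the list's median was 0.03 and 22 of 42 were above 0.

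The interferon-stimulated response element, written as GAAA, any 2 bases and GAAA, was searched on both strands in the same promoter windows. It was found in 17 of 33 interferon genes with an entry (51.5%), against 4.0% of all genes in the table. For the leading pair of genes the stretches that hold it are shown 5′ to 3′ on the gene's strand, with the element, which here reads on the opposite strand, in capitals.

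Ifit3: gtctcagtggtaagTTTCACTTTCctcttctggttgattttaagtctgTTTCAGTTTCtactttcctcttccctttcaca
Ifit1: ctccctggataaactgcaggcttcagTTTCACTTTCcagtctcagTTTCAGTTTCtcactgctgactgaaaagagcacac

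The Ifit3 stretch is chr19:34583359-34583438 and the Ifit1 stretch chr19:34640759-34640838, both on the plus strand and upstream of the start. The elements began at -156 and -122 in Ifit3 and at -104 and -85 in Ifit1. Presentation genes of MHC class I and II had a median difference of 0.20 over 19 tested, and 0 passed. H2-M3, a non-classical class I gene, gave 7.94, 8.21 and 8.73 in treated and 6.89, 7.22, 6.43 and 6.73 in untreated tumours (difference 1.13 ± 0.36, limma adjusted p = 0.228). The male treated tumour 8639T4 had 6.39.

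**Figure D4:**
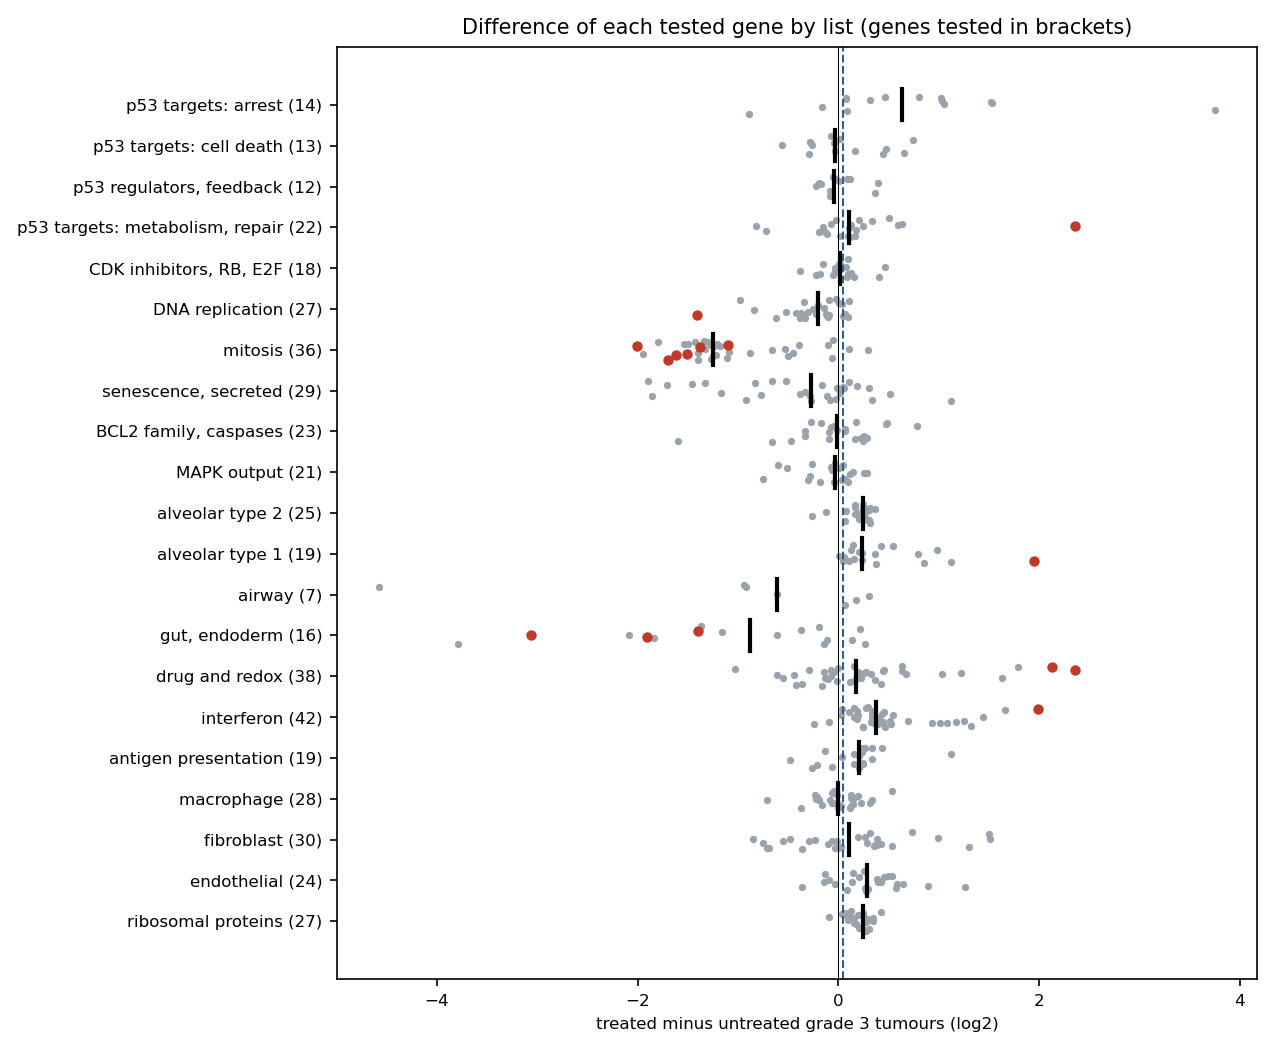
Fitted log2 difference of every tested gene (points) in 21 lists, with list medians as black bars, genes that passed in red and the median of all genes (0.04) as a dashed line. Mitosis (-1.24) and gut (-0.88) lie to the left, and p53 arrest targets (0.63) to the right.

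Among 38 tested genes of xenobiotic metabolism and thiol balance 2 rose, Ephx1, described above, and Cth, against 0.192% of all genes. Cth encodes cystathionine gamma-lyase, which makes cysteine (probe set 1426243_at). Its treated values were tight at 9.18, 9.29 and 9.42, and the untreated ones were 6.43, 6.86, 8.35 and 6.84. Cth rose by 2.13 ± 0.34 (limma adjusted p = 0.0059) and passed in all 10 fits without 1 tumour. In 8639T4 it was 8.94, and in untreated grade 2 tumours 7.05 to 7.88, so treated tumours of both mice lay above all 8 untreated ones.

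Several signalling and regulatory genes outside the lists rose. Map3k20, a stress-activated MAP3 kinase (ZAK), gave 6.92, 7.03 and 7.38 against 6.34, 5.69, 5.78 and 5.50 and rose by 1.20 ± 0.18 (limma adjusted p = 0.00517). Ttc5, a stress-responsive cofactor of p300 and p53, gave 6.89, 7.12 and 7.31 against 5.96, 5.83, 6.06 and 5.67 and rose by 1.12 ± 0.18 (limma adjusted p = 0.0059). In both genes the untreated tumours lay close to the array median. Gpc3, the heparan sulphate proteoglycan glypican 3, had 7.62, 8.23 and 8.46 against 6.40, 7.30, 5.84 and 6.48 and rose by 1.61 ± 0.30 (limma adjusted p = 0.0187). Dglucy, a mitochondrial D-glutamate cyclase, rose by 2.61 ± 0.48 (limma adjusted p = 0.0187), with 7.78 to 8.95 in treated and 5.06 to 5.91 in untreated tumours.

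Rab3c, a GTPase of secretory vesicles, rose by 1.17 ± 0.23, Ogfrl1 by 0.83 ± 0.17 and C2cd2 by 1.02 ± 0.22 (limma adjusted p = 0.0324, 0.0438 and 0.0438). The 3 probe sets of Ogfrl1 differed by 0.96, 0.96 and 1.22 between group means. None of these 3 genes passed in all fits that left out 1 grade 3 tumour.

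Ang3 and Ctr9 rose but were high only in tumours of mouse 8688. Ang3, an angiogenin-family ribonuclease, had 6.50, 6.66 and 7.03 in the treated grade 3 tumours and 2.08, 1.94, 2.16 and 2.32 in the untreated ones (difference 3.74 ± 0.79, limma adjusted p = 0.0438). It was 7.53, 6.60 and 7.29 in the 3 grade 2 tumours of mouse 8688 and 2.14 in 8639T4, the treated tumour of the other mouse. Ctr9, a subunit of the PAF1 elongation complex, had 9.66, 10.06 and 10.11 against 6.69, 7.14, 7.63 and 7.09 (difference 2.51 ± 0.39, limma adjusted p = 0.00517) and 7.50 in 8639T4. The other 3 probe sets of Ctr9 lay near 5 and differed by 0.22, -0.07 and 0.04. With sex as a covariate, for which 8639T4 supplies the only treated male, the Ang3 difference was -0.40.

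Hbb-b2, an adult beta-globin gene (probe set 1427865_at), had the smallest p of all genes. Its second probe set was under the array median in every grade 3 tumour and differed by -0.70 between group means. In the first probe set Hbb-b2 gave the values that follow. It was 6.09, 6.88 and 7.12 in treated and 9.35, 10.54, 9.43 and 10.57 in untreated grade 3 tumours and fell by 3.09 ± 0.37 (limma adjusted p = 0.00123). It was also low in treated grade 2 tumours (6.51, 7.75 and 7.29 in mouse 8688 and 7.69 in 8639T4) and high in untreated ones (10.21 to 10.66). Hba-a2, an alpha-globin gene, did not follow it: it was 9.79, 10.46 and 10.61 in treated and 10.18, 10.59, 10.80 and 10.32 in untreated tumours, with full overlap (difference -0.16 ± 0.20, limma adjusted p = 0.835). Other red-cell markers were under the array median in 10 of 10 tumours: Hba-a1 lay between 1.94 and 2.48, and Alas2, which starts haem synthesis, between 2.68 and 2.96 in treated and between 3.73 and 4.57 in untreated tumours. Of the 17 red-cell and platelet genes listed 3 were tested, and the part of red cells in the Hbb-b2 difference was not tested.

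A few genes expressed in myeloid cells or in clotting fell. Clec4n, the fungal receptor Dectin-2 of macrophages, had 7.57, 8.21 and 8.44 in treated and 9.43, 9.04, 9.09 and 9.67 in untreated tumours and fell by 1.36 ± 0.30 (limma adjusted p = 0.049). Tbxas1, thromboxane synthase, gave 5.60, 5.99 and 6.14 against 6.58, 7.08, 6.89 and 7.02 and fell by 0.95 ± 0.16 (limma adjusted p = 0.00749). F10, coagulation factor X, gave 7.68, 7.89 and 8.03 against 8.23, 9.37, 9.45 and 9.08 and fell by 1.22 ± 0.26 (limma adjusted p = 0.045). The 28 tested macrophage genes had a median difference of -0.01 with 0 passing, and their mean ran from 9.79 to 10.19 in treated and from 9.88 to 9.99 in untreated tumours. Cd68, Csf1r, Marco and Chil3 were above the array median in 10 of 10 tumours.

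Scara3, a scavenger receptor, fell by 3.23 ± 0.63 (limma adjusted p = 0.0272), with 3.85 to 5.90 in treated and 7.43 to 8.97 in untreated tumours. Fam160b1 fell by 1.97 ± 0.34 and Tmem242 by 1.38 ± 0.28 (limma adjusted p = 0.0119 and 0.0322). Tmem242 stood at 5.54 in 8639T4, on the side of the untreated grade 3 tumours.

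Senescent cells can secrete cytokines and proteases. Of 29 tested senescence and secretory genes 0 passed, 20 were below 0 and the median was -0.27. Il1b, an inflammatory cytokine, had 5.55, 6.12 and 6.57 treated against 7.11, 8.51, 7.18 and 8.78 untreated (difference -1.86 ± 0.60, limma adjusted p = 0.247). Angptl4, a secreted lipase inhibitor, gave 6.37, 6.82 and 7.20 against 8.57, 7.16, 8.40 and 8.67 (difference -1.33 ± 0.30, limma adjusted p = 0.0581). Glb1, the lysosomal galactosidase used as a senescence stain, overlapped at 7.91 to 8.86 and 8.26 to 8.83.

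Higher-grade tumours are known for strong MAPK output. Of 21 tested genes of that output 0 passed and the median was -0.04. Dusp6, a feedback phosphatase of ERK, ran from 11.18 to 11.46 in treated and from 11.14 to 11.54 in untreated tumours. Ereg, an EGFR ligand, gave 9.80, 10.91 and 11.19 against 11.55, 11.41, 11.30 and 11.88 (difference -0.75 ± 0.36, limma adjusted p = 0.563). The immediate early genes had a median of 0.03 over 24 tested with 0 passing.

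Stromal markers were measured in both groups. The 30 tested fibroblast genes had a median difference of 0.11 and the 24 endothelial genes 0.28, and 0 passed in either list. Fibroblast means ran from 9.24 to 9.68 in treated and from 9.0 to 9.75 in untreated tumours, and endothelial means from 8.39 to 8.85 and from 7.96 to 8.84. Fbln1, a matrix protein, gave 6.16, 6.82 and 7.11 against 4.17, 6.44, 5.20 and 4.92, and Tcf21, a lung mesenchymal factor, 7.22, 7.75 and 8.04 against 5.72, 7.59, 5.53 and 6.44. In both, 8565T1 lay within the treated range (limma adjusted p = 0.104 and 0.144). Of T-cell markers Cd3e was above the array median in 9 of 10 grade 3 tumours, Cd3d in 3, Cd8a in 1 and Cd4 in 0, and of B-cell markers Ms4a1 was above it in 1 and Cd79a in 0. The part of stromal cells in the differences above was not tested.

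The spread between tumours was smaller in the treated group. The median SD of a gene was 0.19 in treated and 0.25 in untreated tumours, and it was larger in the untreated group for 4755 of 7300 genes (65.1%). The treated tumours share 1 mouse, whereas the untreated ones come from 3, so variation between mice enters only the untreated group.

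The 32 genes that passed, leaving out Xist and Eif2s3y, were then read in the 8 grade 2 tumours by the side of the midpoint between the grade 3 group means. The 3 treated grade 2 tumours of mouse 8688 lay on the treated side in 31, 31 and 32 genes. The treated tumour of the other mouse, 8639T4, did so in 26: 18 of 19 that fell and 8 of 13 that rose. The exceptions were Ang3, C2cd2, Ctr9, Ogfrl1, Tmem242 and Ttc5. Over all 359 genes whose grade 3 groups do not overlap, 8639T4 lay on the treated side in 75.8%. Untreated grade 2 tumours lay on that side in 22 and 19 of the 32 genes for mouse 8700 and in 9 and 9 for mouse 8565. Among the 13 that rose they did so in 7 and 8 for mouse 8700 and in 3 and 5 for mouse 8565. These counts thus differed between the 2 untreated mice. For 13 of the 32 genes (40.6%) the mean of the untreated grade 2 tumours was nearer to the treated than to the untreated grade 3 mean. Of all 7300 tested genes this held for 4272 (58.5%). The 32 genes were picked by their grade 3 difference, so where other tumours fall is partly set by that choice.

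**Figure D5:**
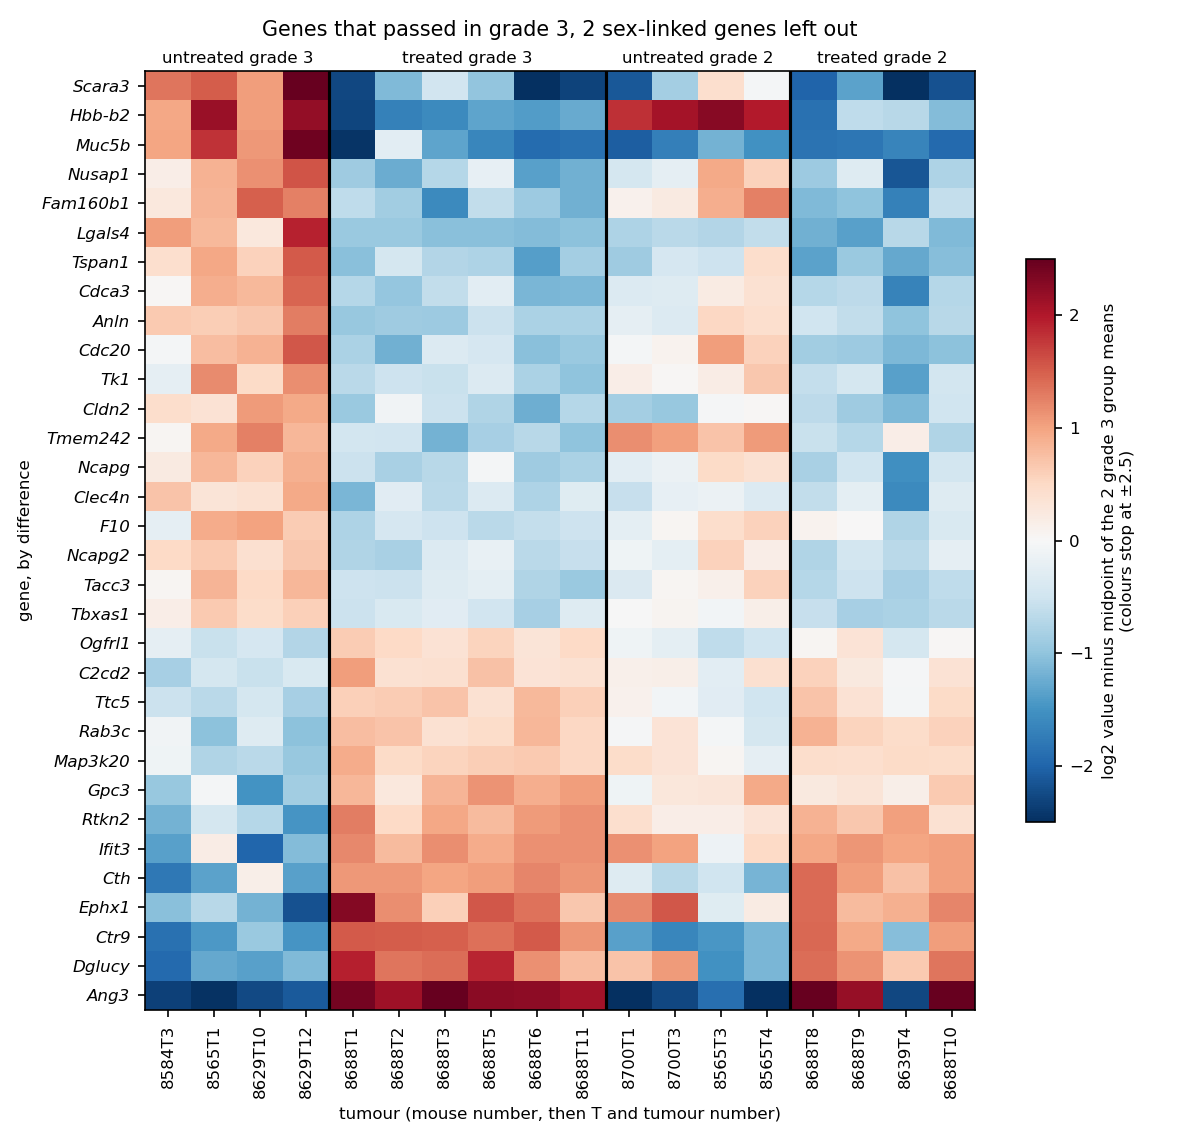
Log2 value of the 32 genes in each of the 18 tumours, relative to the midpoint of the grade 3 group means (red above, blue below, colours stop at ±2.5). Ang3 and Ctr9 are red only in tumours of mouse 8688, whereas Hbb-b2 is blue in every treated and red in every untreated tumour.

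No gene had a treatment difference in grade 3 that differed from that in grade 2 at an adjusted p of 0.05 in limma: 0 of 7300 passed, and 665 (9.11%) had an unadjusted p under 0.05. None of the differences above is shown to be particular to grade 3. In grade 2 the Cdkn1a difference was 1.24 ± 0.44 (limma adjusted p = 0.51), beside 1.53 in grade 3. That grade 2 difference averages over untreated mice that differed. Cdkn1a was 9.02 and 8.88 in the untreated grade 2 tumours of mouse 8565, but 10.80 and 10.63 in those of mouse 8700. The latter lay inside the treated grade 3 range of 10.52 to 11.87, though below all treated grade 2 tumours. The grade 2 and grade 3 comparisons share mouse 8688 in their treated groups and mouse 8565 in their untreated ones.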

How the data were processed

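Microdissected tumours gave 100 ng of RNA each, which was amplified, labelled with biotin and put on arrays (labels' protocols). The values are log2 signals that the authors deposited, and the submitters' processing notes name GCRMA 2.20.0 and R 2.11.0. GCRMA adjusts for probe sequence and evens out the distributions of the arrays, so a change in total RNA is not seen. No source used here names scan batches. Array number limits precision.

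Each of 12393 genes was read from the probe set of highest mean across the 18 tumours. Tests covered the 7300 genes that exceeded the median of their array in 4 or more tumours, which a gene could do through 1 group alone. Group means of the 4 groups were fitted with limma 3.58.1 (R 4.3.3), taking mouse as a random block (correlation 0.259), and p-values were adjusted by Benjamini-Hochberg over all 7300. Fitted differences weight tumours by that correlation. The script was tested on simulated data.

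Named are Cdkn1a, Mdm2 and Cdkn2a, genes that passed, and from each of 31 lists 2 anchors and up to 4 members of smallest p; not all are printed. Sfn, Ccng2 and Casp1 were named after their values were seen. The members and lists were chosen with earlier results of these data known. Alternatives changed the animal or sex term, the samples, normalisation, filter, probe sets, spread model and array weights, or left out tumours or mice.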

Additional observations from a re-analysis of the deposited data

Results flagged for a closer look

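Values of 71 of the named genes and list means were checked for a tumour far from the others of its group. The measure was the ratio of its gap to the group's range. In 11 of 202 groups a tumour stood apart, and chance gives about 1 in 20.

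Among untreated tumours, 8584T3 had 11.98 for Trp53inp1 against 11.24 to 11.34 in the others. 8629T12 had 8.10 for Anln against 7.43 to 7.49, and 8.32 for Fbln5, an elastic fibre protein, against 9.01 to 9.06.

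Among treated tumours, 8688T1 had 7.10 for Irf7 against 6.42 to 6.66. 8688T11 had 9.66 for Ctr9 against 9.95 to 10.11, and 9.96 for Fbln5 against 9.41 to 9.62. 8688T2 had 7.62 for Gpc3 against 8.18 to 8.46, and 11.08 for Inmt, a methyltransferase of lung, against 11.69 to 11.93. 8688T3 stood apart in 3 list means: regulators of p53 at 8.75 (others 8.96 to 9.03), epithelial junction and mesenchymal genes at 10.11 (others 9.87 to 9.94) and immediate early genes at 9.30 (others 9.06 to 9.14). This tumour also had the highest log2 difference between 3′ and 5′ control probe sets averaged over Actb and Gapdh, at 2.62, though not of Pc or Tfrc, and its part in these values was not tested.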

How the results depend on the processing

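The count of 34 genes rested on the treatment of mice and on single tumours. It was 272 without the animal term, 374 with array weights, 0 by limma with animal means (173 at an unadjusted p under 0.05), 12 with only the 10 grade 3 tumours, 10 with sex as a covariate (6 of them among the 34) and 64 without the filter. With animal means the treated grade 3 group has 1 value, so no conclusion is drawn from the counts of that fit. Leaving out 1 grade 3 tumour gave 16 to 168 passing genes, and leaving out mouse 8584 or 8629 gave 168 or 10. Of the 32 genes other than sex genes, 11 passed in all 10 of those single-tumour fits. Genes whose groups do not overlap numbered 359, and 605 without the filter, 377 to 739 without 1 tumour, and 739, 612 and 1015 without mouse 8584, 8565 and 8629. Fewer tumours make separation easier by construction. Without the 2 tumours of highest Actb and Gapdh 3′ excess, an alternative chosen after seeing the data, 32 genes passed, 24 of them among the 34. Direction was checked for 71 of the named genes. Among these it turned only with sex as a covariate, for 3: Ang3 (-0.40), H2-M3 (-0.18) and Scgb1a1 (0.0026). Other named genes, such as Pcna and Dusp6, were not checked. The medians of mitosis, p53 arrest, gut, interferon and alveolar type 1 genes kept their sign in all 25 alternatives. Other lists did so too, among them airway, replication and endothelial genes. The interferon median came as near 0 as 0.03 (sex as a covariate) and the gut median as near as -0.13 (mean of probe sets). The cause of these changes was not tested. No paired analysis was possible because tumour numbers name tumours within a mouse and pair no treated with an untreated tumour.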
